A study of Rattus norvegicus with 12 samples.

Results

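Ddit3 and Trib3 are 2 of the 32402 genes in the deposited table, where they are listed under the Ensembl IDs ENSRNOG00000006789 and ENSRNOG00000007319. The table gives IDs without names, and no file used here pairs an ID with a symbol, so both symbols are the ones supplied with the choice of these IDs and could not be checked against the data. The genes were selected on their FPKM response to tunicamycin, as those with the largest fold changes at 8 h among genes listed at 0 in no library. Their values are therefore given as a description, without a test.

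RNA was measured in oligodendrocyte precursor cells, proliferating glia that mature into the cells that make central myelin. The cells had been taken from the spinal cord of adult rats and were cultured for no more than 6 passages. Tunicamycin, an antibiotic that blocks N-linked glycosylation and so loads the endoplasmic reticulum with misfolded protein, was given at 5 µM for 2 h or for 8 h, and control cells received 0 µM for the same times. The 12 libraries, 3 per group, came from 3 experiments that the study calls independent. No genotype or strain is given, and the labelled cell type could not be checked against its markers because the other genes carry no names.

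When the endoplasmic reticulum is stressed, the kinase PERK slows protein synthesis in general but favours the translation of the transcription factor ATF4. ATF4 induces Ddit3, which encodes CHOP, a transcription factor of the C/EBP family known for its part in cell death under lasting stress. Trib3 encodes a tribbles pseudokinase, a kinase-like protein without ordinary kinase activity that binds AKT. Trib3 is a known target of both ATF4 and CHOP, and its protein is known to act back on both. CHOP has also been studied in stressed oligodendrocytes in disorders of myelin.

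Because both genes answer to the same stress pathway, the 250 bases before each annotated start are shown, as given by RefSeq for the build GRCr8. The deposited values are on the older build rn6. The Ddit3 window is chr7:65001445-65001694 on the plus strand, and the Trib3 window is chr3:161275534-161275783 on the minus strand. Both run 5′ to 3′ along the gene. Capitals mark matches to an AP-1 site and an endoplasmic reticulum stress element with 1 free base in Ddit3, and to a CHOP core and a C/EBP-ATF composite in Trib3.
Ddit3: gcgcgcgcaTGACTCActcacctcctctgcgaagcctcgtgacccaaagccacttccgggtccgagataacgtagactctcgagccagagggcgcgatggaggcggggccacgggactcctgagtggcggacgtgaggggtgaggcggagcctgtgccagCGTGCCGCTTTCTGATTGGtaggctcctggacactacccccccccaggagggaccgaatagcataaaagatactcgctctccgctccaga
Trib3: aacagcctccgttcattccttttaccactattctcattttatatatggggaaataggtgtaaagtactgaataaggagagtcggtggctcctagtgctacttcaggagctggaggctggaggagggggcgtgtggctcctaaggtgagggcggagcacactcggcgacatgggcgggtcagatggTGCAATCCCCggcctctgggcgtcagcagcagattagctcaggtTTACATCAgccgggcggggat

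The windows held different motifs. All motifs were searched on both strands, and shares are over 33469 RefSeq windows of the same length and position. The CHOP core, TGCAAT and CCC parted by 1 free base, lay 65 to 56 bases before the start of Trib3 on the gene's strand and was found in 40 windows, or 0.120%. The C/EBP-ATF composite, TGATGNAA, which ATF4 is known to bind, lay 21 to 14 bases before the start of Trib3 on the opposite strand and was found in 3.40% of windows. Neither was matched in the Ddit3 window, and bases farther upstream were not searched, so a match there is possible.

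In Ddit3, the AP-1 letters TGACTCA lay 241 to 235 bases before the start, and 4.05% of windows held them. The endoplasmic reticulum stress element, CCAAT and CCACG parted by 9 free bases, was matched in neither window and in 0.0657% of all. With the first C of its second part left free, so that 10 free bases part CCAAT and CACG, it was matched 90 to 72 bases before the start of Ddit3 on the opposite strand, and in 0.173% of windows. This match includes the only CCAAT of the window, a motif of 34.0% of windows. A TATAAA on the opposite strand of Trib3, far from the start, was the remaining match, and 12.9% of windows held that motif. The second form of the stress element, ATTGG and CCACG parted by 1 free base, and the unfolded protein response core TGACGTG were matched in neither window, and in 0.0418% and 1.54% of all. The motifs were chosen with both sequences in view, so a match describes the letters only.

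**Figure D1:**
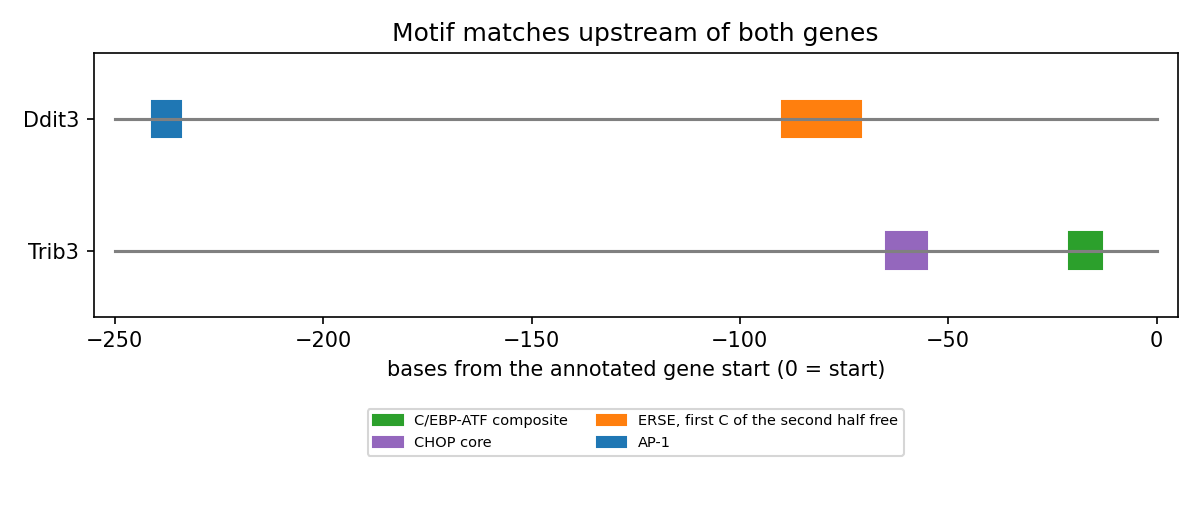
Positions of 4 motif matches in the 250 bases before the annotated start of Ddit3 and Trib3, in bases from the start on the horizontal axis; each box spans 1 match. The CHOP core and the C/EBP-ATF composite lie within 65 bases of the Trib3 start, and the Ddit3 matches begin 90 and 241 bases before its start.

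Levels are in FPKM, which are fragments scaled by gene length and library size, so the levels of both genes can be set side by side. How many fragments stand behind a value is unknown. Control 8 h replicate 2 stands apart from the other libraries: of 12056 genes averaging 1 FPKM or more, 1508 had at least 2 times the mean of its fellow replicates there, against 340 to 647 in the other 11, and its summed FPKM was 588250 against 690766 to 764988. The log2 differences, the differences in ratio and the shares that use it are also given without it.

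Ddit3 was well expressed before any treatment. In control cells at 2 h it stood at 46.4, 37.2 and 46.2 FPKM, and at 8 h it stood at 43.2, 41.1 and 44.5 FPKM. The control groups overlapped, with means of 43.2 ± 5.27 and 42.9 ± 1.74 FPKM (SD, n = 3 each), and Ddit3 ranked from 2528 to 3084 among all genes of these libraries. Trib3 was several times lower. It stood at 5.67, 3.99 and 7.47 FPKM in control at 2 h and at 6.95, 8.57 and 7.75 FPKM in control at 8 h. These groups overlapped as well, with means of 5.71 ± 1.74 and 7.76 ± 0.809 FPKM (SD, n = 3 each), and Trib3 ranked from 7628 to 9209.

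Log2 differences are on the log2(FPKM + 1) scale and were fitted with limma over all 12 libraries and 12056 genes. Between control at 8 h and control at 2 h, the log2 difference was −0.0033 ± 0.10 for Ddit3 (SE), with an interval at 95% confidence from −0.24 to 0.23. That of Trib3 was 0.41 ± 0.17 (SE), with an interval from 0.029 to 0.80, and it was 0.22 without control 2 h replicate 2, where Trib3 was lowest. Without control 8 h replicate 2 the differences were 0.027 for Ddit3 and 0.35 for Trib3. The control libraries at 8 h entered the fold changes on which the genes were selected, so these values too are a description without a p-value. Over all genes, limma called 0.0249% in this comparison. No source says whether libraries of a group came from separate cultures beyond the 3 experiments, so errors measure only the spread between these libraries.

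By 2 h of tunicamycin both genes stood above every control library of the same time, Ddit3 by more. Ddit3 was at 160.3, 133 and 132 FPKM in the treated libraries, a mean of 142 ± 16.0 (SD, n = 3) and 3.28 times the control mean. The lowest treated library was 2.85 times the highest control. Trib3 was at 14.6, 13.0 and 15.2 FPKM, a mean of 14.2 ± 1.15 (SD, n = 3) and 2.50 times the control mean, with the lowest treated library 1.73 times the highest control. In RNA from whole cultures, more cells with the transcript and more transcript per cell cannot be told apart. Treated libraries lay above all controls for both genes, as they did for 10.1% of all genes tested, and limma called 0.556% of genes in this comparison. On the log2(FPKM + 1) scale the difference was 1.69 ± 0.10 for Ddit3 and 1.21 ± 0.17 for Trib3 (SE). These placed them at rank 4 and rank 13 among the 11217 tested genes at 0 in no library. Among all 12056 genes tested, with those at 0 in some library included, the ranks were 76 and 164.

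By 8 h of tunicamycin Trib3 had the larger fold change of the pair. Trib3 was at 167, 214 and 190 FPKM, a mean of 190.3 ± 23.2 (SD, n = 3) and 24.5 times its control at 8 h. Ddit3 was at 721, 712 and 700.1 FPKM, a mean of 711 ± 10.5 (SD, n = 3) and 16.6 times its control. Replicate 1 was the highest of the 3 for Ddit3 and the lowest for Trib3. Ddit3 now ranked from 129 to 133 among all genes of these libraries and Trib3 from 512 to 731. Both lay above all controls at 8 h, as did 21.5% of all genes tested, and limma called 33.3% of genes.

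The log2 difference at 8 h was 4.45 ± 0.17 for Trib3 and 4.02 ± 0.10 for Ddit3 (SE), on the log2(FPKM + 1) scale. Without control 8 h replicate 2 these were 4.51 ± 0.20 and 3.99 ± 0.11 (SE). The lead of Trib3 shrank with a pseudocount of 5, which damps low genes, to 3.93 against 3.90.

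**Figure D2:**
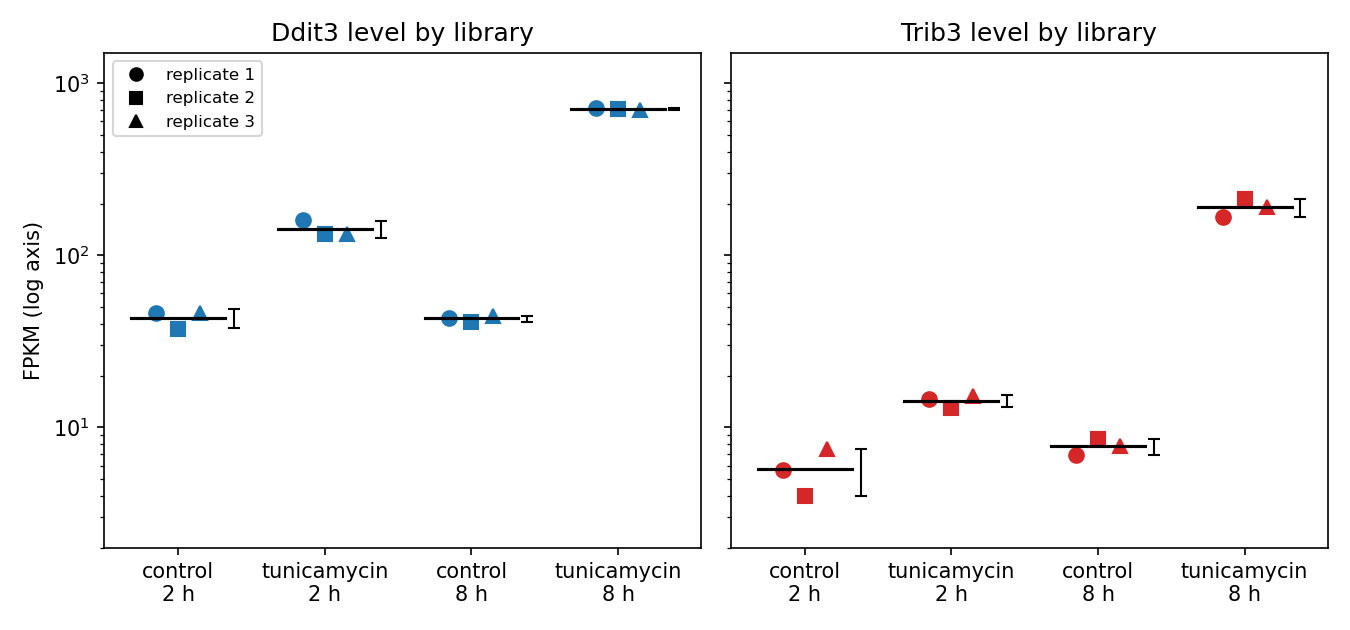
FPKM of Ddit3 (left) and Trib3 (right) in each of the 12 libraries on a log axis, by group; symbols mark the replicate number, horizontal lines the group mean, and error bars the SD over 3 libraries. The control groups overlap for both genes, which are higher at 2 h of tunicamycin and far higher at 8 h, where Ddit3 reaches 711 and Trib3 190.3 FPKM on average.

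Between 2 h and 8 h of treatment, the mean of Ddit3 went up 5.01 times and that of Trib3 13.4 times. The treated libraries at 8 h lay above those at 2 h for both, as for 25.6% of all genes tested. In log2 terms the treated groups differed by 2.32 ± 0.10 for Ddit3 and 3.64 ± 0.17 for Trib3 (SE). This comparison uses the same treated libraries as those above, so it adds no separate evidence. Taken against the controls of each time, the tunicamycin effect was 2.33 ± 0.15 larger at 8 h than at 2 h for Ddit3 and 3.23 ± 0.24 larger for Trib3 (SE, log2). Without control 8 h replicate 2 these were 2.30 and 3.30. Over all genes, limma called this difference for 13.2%.

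The level of Trib3 relative to Ddit3 lay below that of control on average at 2 h of tunicamycin and above it at 8 h. In control at 2 h, Trib3 FPKM was 12.2%, 10.7% and 16.2% of Ddit3 FPKM, a mean of 13.0% ± 2.81 (SD, n = 3). At 2 h of tunicamycin it was 9.12%, 9.75% and 11.5%, a mean of 10.1% ± 1.21 (SD, n = 3). All 3 treated libraries lay below the control mean, but the groups overlapped. The log2 ratio differed by −0.35 ± 0.18 (SE, from the spread pooled over the 4 groups), and by −0.19 without control 2 h replicate 3, the control with the highest ratio.

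At 8 h, Trib3 was 16.1%, 20.9% and 17.4% of Ddit3 in control, a mean of 18.1% ± 2.47, and 23.2%, 30.0% and 27.2% with tunicamycin, a mean of 26.8% ± 3.42 (SD, n = 3 each). Here the groups did not overlap, and all 3 treated libraries were higher than the 3 controls. This restates the larger fold change of Trib3 at 8 h and adds no separate evidence. How often the ratios of other gene pairs separate in this way was not computed. The log2 ratio differed by 0.56 ± 0.18 (SE), or 0.67 without control 8 h replicate 2, which had the highest ratio of the controls. Between the treated groups the log2 ratio was 1.40 ± 0.18 (SE) higher at 8 h. In every one of the 12 libraries Ddit3 remained the more abundant, by 3.33 times at the least and 10.96 times at the most.

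The ratio was also higher in control at 8 h than in control at 2 h, by 0.49 ± 0.18 on the log2 scale (SE). The groups overlapped slightly, and no test is given, for the reason stated for the levels. The lowest control at 8 h had Trib3 at 16.1% of Ddit3, and the highest control at 2 h had it at 16.2%. Without control 8 h replicate 2 the difference in log2 ratio was 0.38.

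**Figure D3:**
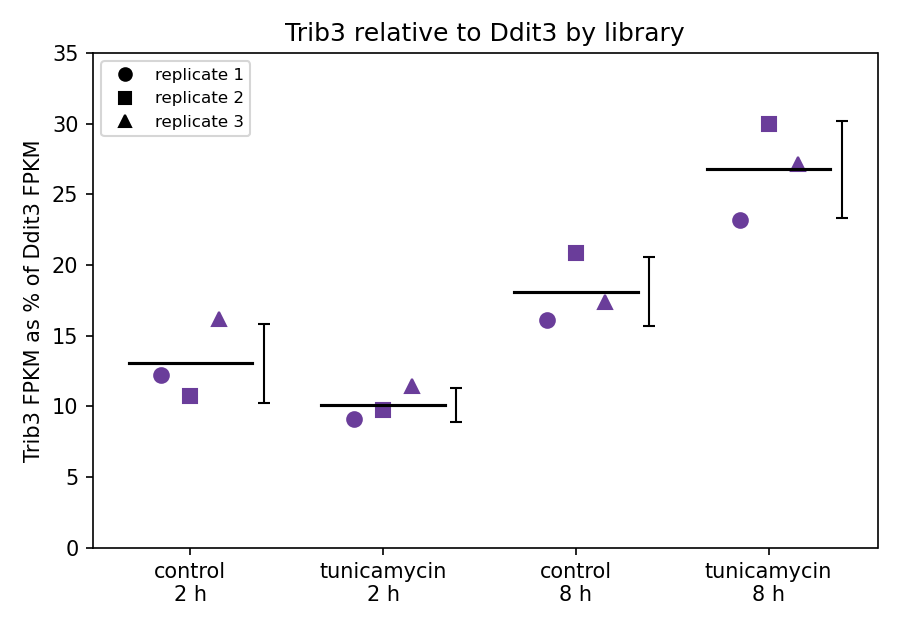
Trib3 FPKM as a percentage of Ddit3 FPKM in each library, by group; symbols mark the replicate number, horizontal lines the group mean, and error bars the SD over 3 libraries. The ratio is lowest at 2 h of tunicamycin, with a mean of 10.1%, and highest at 8 h of tunicamycin, with a mean of 26.8%.

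The timing of the genes differed in the same sense when read as gain over control. This reading uses the same group means as the fold changes, so it adds no separate evidence. Ddit3 had gained 98.6 FPKM at 2 h and 668 FPKM at 8 h, so 14.8% of the later gain was present at 2 h, with an SD of 2.39 percentage points over the 3 treated libraries at 2 h. Trib3 had gained 8.54 and 183 FPKM, so 4.68% of its gain was present at 2 h, with an SD of 0.630 points. Each SD leaves out the spread of the other groups. Without control 8 h replicate 2 the shares were 14.8% and 4.67%. On the log2(FPKM + 1) scale the shares were 42.1% and 27.3%, larger for both by construction and in the same order.

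Across the table, 14 genes at 0 in no library had a log2 fold change of at least 3 at 8 h. Among these, Ddit3 had the highest share of its 8 h gain at 2 h, and Trib3 had rank 5 on the FPKM scale and rank 4 on the log2 scale. The genes at rank 2 and rank 3 were close to Ddit3, with 13.0% and 12.4% against 14.8% on the FPKM scale. The lead of Ddit3 there was smaller than its SD of 2.39 points. On the log2 scale they had 34.2% and 33.2% against 42.1%. Both are among the genes nearest to Ddit3 in course, described below. The median share of the 14 was 3.29% on the FPKM scale, and the lowest was −0.188%, from a gene with no gain at 2 h. Ddit3 was also the most abundant of the 14 at 8 h of tunicamycin, and Trib3 had rank 4. In 8 of the 14, these genes included, the treated libraries at 2 h lay above all controls, beside the 10.1% of all genes tested; the 14 were picked on their 8 h values.

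**Figure D4:**
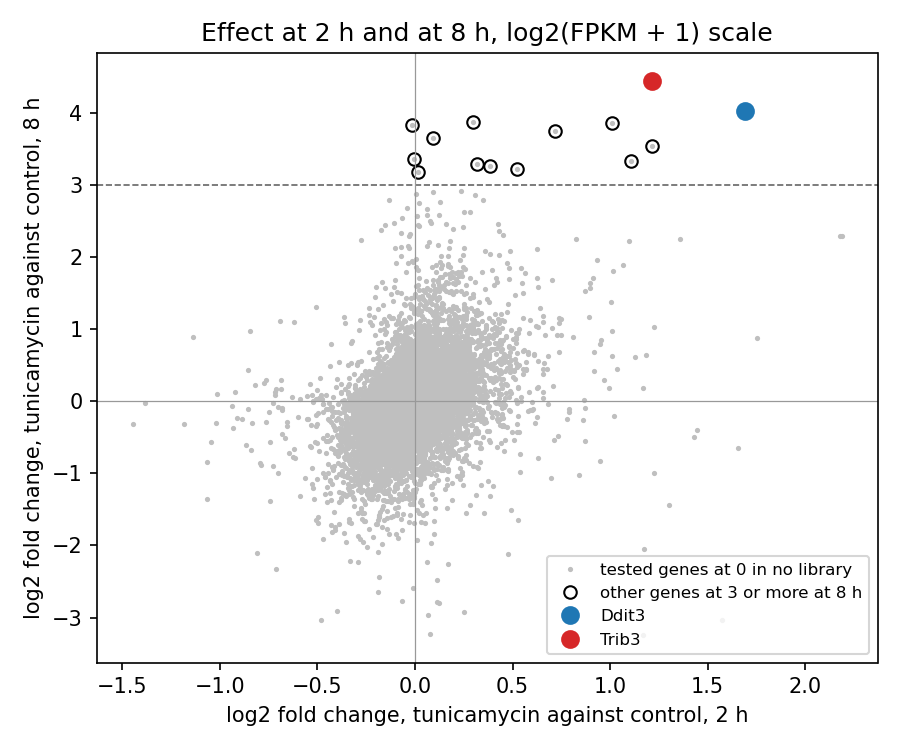
Log2 fold change of tunicamycin against control at 2 h (horizontal) and at 8 h (vertical), on the log2(FPKM + 1) scale, for the 11217 tested genes at 0 in no library; open circles are the other 12 genes at 3 or more at 8 h. Trib3 is the highest point at 8 h, and Ddit3 lies farthest right among the 14 genes above the dashed line.

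The genes with the most similar course were found by the root mean square difference over the 12 libraries, after each gene's log2(FPKM + 1) was set against its mean over the 6 controls. Trib3 was the fourth nearest gene to Ddit3, and Ddit3 was the third nearest to Trib3, at a difference of 0.52 log2 units. The median difference of all such genes was 2.21 from Ddit3 and 2.42 from Trib3. Both genes were chosen for large fold changes at 8 h, so a wide distance from most genes follows from that choice.

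The nearest gene to Ddit3 was ENSRNOG00000018796, at 0.35. It resembled Ddit3 in level too, with 39.1 to 50.7 FPKM in control at 2 h, 97.2 to 112 with tunicamycin at 2 h, 38.2 to 44.7 in control at 8 h and 465 to 525 with tunicamycin at 8 h. The nearest to Trib3 was ENSRNOG00000005114, at 0.36, which was the second nearest to Ddit3 as well. It was a much less abundant gene, with 1.29 to 1.87, 3.98 to 4.55, 1.90 to 2.78 and 41.8 to 51.3 FPKM in the same groups. The third nearest to Ddit3 and the second nearest to Trib3 lay at 0.48 and 0.45. Names of these genes are not given in the files, and the measure was applied to genes chosen for their response, so nearness describes their course only.

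**Figure D5:**
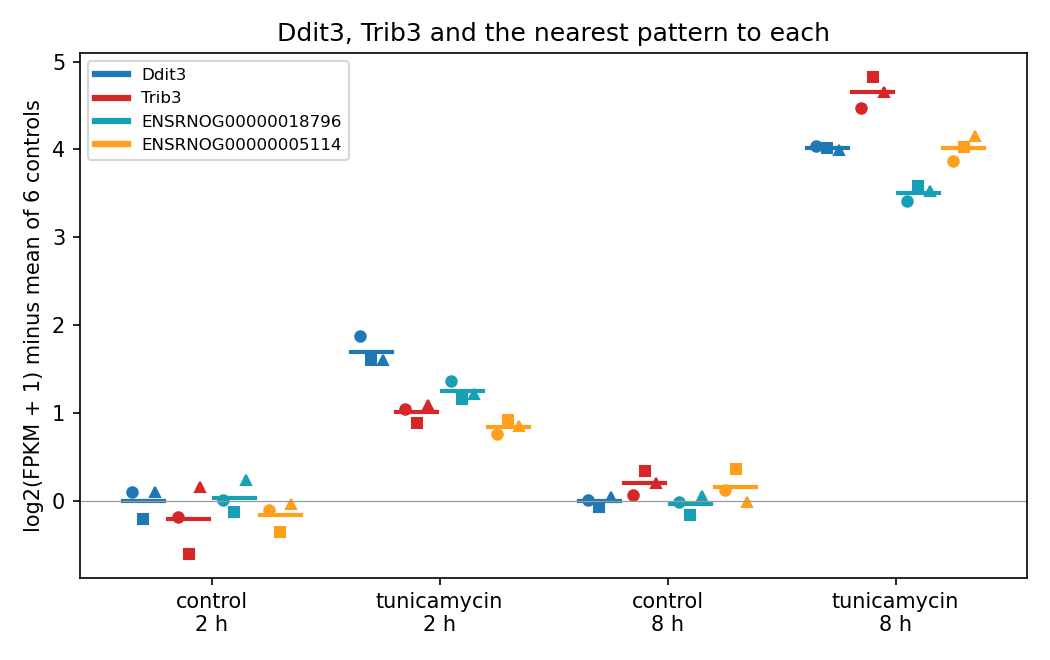
Log2(FPKM + 1) minus the mean of the 6 control libraries for Ddit3, Trib3 and the gene nearest to each, by group; points are libraries, with symbols for the replicate number as in the plot of levels, and short lines are group means. At 2 h of tunicamycin Ddit3 lies above the other 3 genes, and at 8 h Trib3 does.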

How the data were processed

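Libraries were stranded and depleted of ribosomal RNA, per the labels' protocols. The authors deposited 1 table of FPKM values for 12 libraries. The build rn6, Cuffnorm, Cuffdiff 2.1.1, Cufflinks 2.2.1, TopHat2 2.0.4 and FastQC 0.10.1 are listed, with no role or order, per the submitters' processing notes. How fragments were assigned to genes is not stated in any source at hand.

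Columns were matched to samples by treatment, time and replicate number. Absolute depth is unknown. By an estimate from genes under 1 FPKM, the fragments behind 1 FPKM varied up to 1.42-fold between libraries. It takes the most common ratio of low values between libraries as that of equal fragment numbers. Of 28631 ratios of low values to the lowest value of the same gene, 33.1% lay within 0.03 of a whole number. Such ratios need be whole only where the lowest value is 1 fragment, so this share could not check the estimate. The estimate thus stayed unchecked, and fragments could not be recovered. No 2 libraries were identical.

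The 12056 genes averaging 1 FPKM or more were transformed to log2(FPKM + 1) and fitted as 4 group means in limma 3.58.1 under R 4.3.3, all libraries together (trend on mean expression, Benjamini-Hochberg adjustment, threshold 0.05). The fit was tested on simulated data. Ratios and shares used FPKM without a pseudocount. Tests of the genes between the control groups and of their relation across controls had been planned and are not given, since control values at 8 h entered the choice of the genes. Alternatives were the pseudocount, the filter, 2 other scalings, fewer groups, a replicate block and leaving out each library.

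The genes, lists and tests were chosen with earlier results of these data known. Named genes were Ddit3, Trib3 and the 3 nearest to each in course, of which 2 IDs are printed. Lists of PERK-branch genes and cell type markers, fixed by symbol, have no result, since 0 of 47357 reference genes carry an Ensembl ID.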

Additional observations from a re-analysis of the deposited data

Results flagged for a closer look

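The tunicamycin effect on both genes differed between the times in the limma interaction fit, by 2.33 for Ddit3 and 3.23 for Trib3 on the log2(FPKM + 1) scale, larger at 8 h. The flag was set because the fit called both genes at its adjusted threshold of 0.05, as it did 13.2% of all genes tested. The genes were chosen for large effects at 8 h, so that call is no test of them. No p-value is attached to this difference.

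The log2 ratio of Trib3 to Ddit3 was lower with tunicamycin at 2 h, by −0.35, and higher at 8 h, by 0.56. All 3 treated libraries at 2 h lay below the mean of their controls and all 3 at 8 h above theirs. The difference between the times was not tested, and the groups at 2 h overlap. The ratio without treatment also differed between the times, by 0.49, and its part in the result was not tested.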

How the results depend on the processing

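Of 320 recomputed log2 differences, ratios and shares of the genes, 310 kept direction and moved by less than the replicate spread. Between controls, they stayed on their side of the fit's threshold instead. Many could not move, as the setting changed no value behind them, so the count does not measure robustness. With a pseudocount of 5, the log2 difference of Trib3 was 0.86 for tunicamycin at 2 h, 3.93 at 8 h and 3.34 between the treated groups. The shares on the log2 scale were 42.1% for Ddit3 and 27.3% for Trib3. The difference of Ddit3 between controls, near 0, changed sign to 0.038 with quantile normalization and 0.086 with equal summed FPKM, and ran from −0.11 to 0.050 when single libraries were left out. That of Trib3 ran from 0.22 to 0.60 in the same way. Leaving out single libraries moved the effect on the log2 ratio between −0.48 and −0.19 at 2 h and between 0.48 and 0.67 at 8 h; with a pseudocount of 1 these were −0.48 and 0.43.

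With the replicate number as a block, both genes' differences were the same by design, with SE 0.097 for Ddit3 and 0.17 for Trib3. Libraries are numbered in blocks by replicate number, each with a library of each group. No source says that a block is an experiment. Only 8 of 18 same-numbered pairs of libraries had deviations correlated above 0.1, and 4 of 12 libraries correlated best with their own number. The numbers were therefore not used to pair libraries. A pairing by experiment remains possible, and the SE of each ratio difference leaves it out. Over all genes, limma called 67 at 2 h (32 with the block, 30 with only the groups compared, 40 with quantile normalization; 18, 18 and 35 without control 2 h replicate 1, 2 or 3, 19, 21 and 23 without tunicamycin 2 h replicate 1, 2 or 3, 29 without tunicamycin 8 h replicate 3, and 114 without control 8 h replicate 2), 4016 at 8 h (2591 with only the groups compared), 1595 for the difference between times (2657 without control 8 h replicate 2) and 3 between controls (1 with a pseudocount of 5, 6 without control 8 h replicate 1 or 2, 9 without replicate 3, and 2 to 4 without any other single library). The cause of these shifts was not tested. Low levels, as of Trib3 in controls, have a counting error of unknown size.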

Other observations

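The residual SD within groups on the log2(FPKM + 1) scale was 0.12 for Ddit3, lower than in all but 15.2% of the 789 genes whose mean FPKM lay within 2-fold of its own, where the median was 0.19. For Trib3 it was 0.23, higher than in 75.1% of 2833 such genes, where the median was 0.17. At 8 h of tunicamycin the CV over 3 libraries was 1.48% for Ddit3 and 12.2% for Trib3, but at 2 h of tunicamycin the order was the other way, with 11.3% and 8.07%. In control the CVs were 12.2% and 30.5% at 2 h, and 4.04% and 10.4% at 8 h. The mean over 12 libraries that defines the comparison genes mixes control and treated levels, and no test was made.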
